A study of Rattus with 6 samples.

Results

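The probes described here stand for linear transcripts, mRNAs and long noncoding RNAs together, whose signal was well above background in injured rat spinal cord and in no sham cord. They were selected on measured values. Of the 57102 linear probes of the array, among 60148 probes other than controls, 902 carried the scanner's mark for a signal well above background on all 3 SCI arrays and on none of the 3 sham arrays, which is 1.58% of the linear probes. The mark had to be present on at least 50% of a probe's spots, and 5 of the 902 were printed on more than 1 spot. The label "detected only after injury" held for all members by this mark and for few of them by a weaker one. By that weaker mark of the scanner, a signal significantly above background, 507 of the 902 were also detected on all 3 sham arrays, 216 on 2, 116 on 1 and 63 on none. They are therefore called injury-gained probes below, and the gain is one of clear detection.

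Spinal cord was taken from 6 adult male Sprague-Dawley rats labelled non-SPF, 3 days after injury in the SCI group; the sources used here state no time for the sham group. The sham group had the bone over the cord removed and nothing more. The SCI group had the same opening and then a weight dropped on the exposed thoracic cord by a modified Allen method, so both groups share the anaesthesia and the opening. Each group held 3 rats, with 1 rat on each array, and total RNA was copied into cyanine-3 labelled cRNA and read on an array in 1 colour. All sham cords were hybridised on a single slide and all SCI cords on a different one with its own scan, so slide and group cannot be told apart in any value below. Because the probes were chosen on this contrast, their differences between the groups are a description and carry no test.

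Contusion of the cord ruptures vessels and kills neurons and glia at once, and a wider second wave of damage follows. In the first days, neutrophils and monocytes enter from the blood, microglia become activated, and astrocytes begin to react at the border of the lesion. RNA of whole tissue pools these cells, so that more cells of a type and more RNA per cell cannot be told apart. The files name the probes by cluster number and pair none of them with a gene. The members are therefore described by probe name, sequence and signal, and no cell type or pathway list was applied to them.

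Each linear probe is a run of 60 bases. The first 30 bases of 6 injury-gained probes are given from 5′ to 3′, with every C in capitals because the C content of the probes is taken up below. The first pair had the highest lower bounds of the SCI over sham signal, the second pair are the member with the fewest C bases, 3, and the one with the highest bound of the 4 members with 4, and the third pair are those with the highest bounds of the 7 members with 19, the most of any member; the last 4 were chosen after their composition was seen.
rclstr_25837_868_6: atCatCtatgtatCttCatCCCggagCaag
rclstr_22033_1668_21: aattgtagtCgaggCaatgatCttCtgCta
rclstr_5105_1040_16: ataaatgggagagttCggtgggtagatgag
rclstr_21398_2095_14: tCggagggtgggaatatCtgtgaatagagg
rclstr_52738_531_24: CattaCtggtaaCCCgagCaagCaggCaaa
rclstr_16034_2452_13: tataCaCttCtCCtatgCaCtgtgaCaaat

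A few injury-gained probes had runs in common with each other, and these matter because probes that read the same stretch are not independent measurements. In the next pairs the shared bases are in capitals and the unshared ones in lower case. The first pair shared 25 bases. The second pair is a linear injury-gained probe and a circular RNA probe that shared 22 bases.
rclstr_32081_719_22: ctGCAGCACCATGCAAAGTGACATCGAttt
rclstr_39366_236_6: cgGCAGCACCATGCAAAGTGACATCGActt
rclstr_15749_2125_6: ctgtcgtGATGAGCAATGTGAAGAGACTCc
RNO_CIRCpedia_6360_6_4: ctagtcgaGATGAGCAATGTGAAGAGACTC

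On the log2 quantile normalized scale that the authors deposited, the median level of the 902 probes was 1.89, 1.88 and 2.03 in sham rats 1, 2 and 3 and 4.81, 4.59 and 4.56 in SCI rats 1, 2 and 3. The highest value of any member on the sham arrays was 3.22, 3.39 and 3.51, and the lowest on the SCI arrays was 3.55, 3.37 and 3.48. Every one of the 902 probes was higher on each SCI array than on any sham array, a separation that the choice of the probes largely sets; among the 42289 probes, linear and circular, that carried the mark throughout the sham group, the SCI group or both, 35.2% had every SCI array above every sham array. The median gap between the lowest SCI value and the highest sham value of a member was 1.94 log2 units. In limma, which compared the groups over those 42289 probes, 898 of the 902 were called higher in SCI at 2-fold or more with a Benjamini-Hochberg adjusted p under 0.05, against a background of 16.1% of probes called in that direction. Since the rule used the same contrast, nothing is read from that count, which was 123 after normexp background correction with an offset of 50.

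Most members gave a low signal even after injury. Their mean SCI level had a median of 4.62, with quartiles of 4.17 and 5.33 and a range from 3.58 to 10.98. Among them 128 passed a level of 6, 21 a level of 8 and 2 a level of 10. On the scanner's own scale the background-subtracted intensity of the members had a median of 25.8, 22.7 and 22.5 units on the SCI arrays and 4.32, 4.62 and 5.05 units on the sham arrays. The median local background was 19 units on each SCI array and 32, 33 and 33 units on the sham arrays. Linear probes with the mark made up 65.0%, 66.9% and 65.8% of all on the SCI slide, against 68.9%, 69.1% and 68.6% on the sham slide. The part of the background level in the choice of members was not tested.

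A sham signal below the mark gives only a bound. The difference was therefore taken as the mean SCI log2 level minus a sham level in which each array counted with the probe's value or with the floor of that array, whichever was larger; the floor is the lowest value that any marked probe had there, 3.05, 3.02 and 3.08. By this measure the members were at least 1.44-fold to at least 243-fold higher in SCI. Each such minimum, here and below, holds only for the deposited scale and this floor. The median was at least 2.95-fold, with quartiles of 2.17-fold and 4.84-fold. That median is 1.56 on the log2 scale, and it was 0.41 after normexp with an offset of 50, a setting that changes the background model and adds a constant larger than the median member intensity. The bound reached 2-fold in 748 members, 4-fold in 295, 8-fold in 123, 16-fold in 46, 32-fold in 20 and 64-fold in 3, and it stayed under 2-fold in 154.

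**Figure D1:**
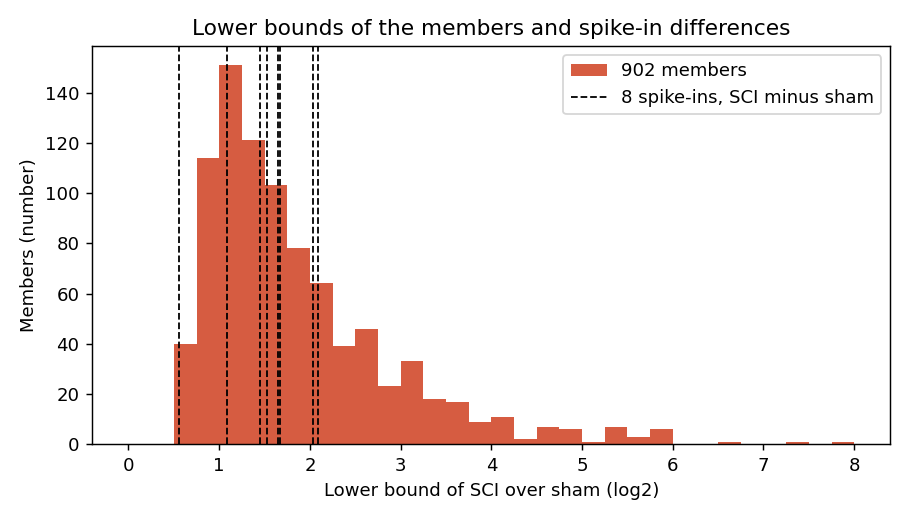
Histogram of the lower bound of SCI over sham in log2 units (horizontal axis) against the number of injury-gained probes (vertical axis); dashed lines mark the SCI minus sham difference of the 8 spike-in controls measured on all 6 arrays. Most of the 902 probes lie among the spike-in lines, and 264 lie to the right of the last one at 2.09.

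The array carries its own yardstick for a difference between the slides, a set of E1A control transcripts added to each RNA sample. The 8 of them that were well above background on all 6 arrays read higher on every SCI array than on any sham array, by 0.55 to 2.09 log2 units when placed on the deposited scale, with an SD within a group of at most 0.09. A further pair of E1A controls was faint and lacked the mark on some or all arrays. E1A_r60_a104 read 1.07, 1.08 and 1.91 in sham and 3.90, 3.94 and 3.71 in SCI, a difference of 2.50 in values below the mark, and E1A_r60_3 read 3.77, 3.45 and 3.56 in sham and 1.102, 1.13 and 1.14 in SCI, a difference of −2.47. Since values below the mark are only bounds, these differences are not set against those of the measured 8. Among the 902 members, 264, or 29.3%, had a lower bound above 2.09, the largest difference of the measured 8, and 1 had a bound below their smallest. That smallest difference was of E1A_r60_n9, which read 15.45 to 16.08, above the level of any member. The measured spike-ins nearest in level to the members were E1A_r60_a107, E1A_r60_a135, E1A_r60_a20 and E1A_r60_a22. They differed by 2.03, 1.67, 1.65 and 2.09, each above the median bound of 1.56. How much of the members' difference came with the slide was not tested, and neither was the source of the spike-in difference. None of the 68 control probes met the rule of the members, and 4 met its mirror image, well above background on all sham arrays and on no SCI array. These were ERCC-00012_90, ERCC-00028_121, ERCC-00062_278 and ETG05_66023, each lower on every SCI array than on any sham array. In log2 intensity on the scanner's scale, ERCC-00012_90 read 4.43, 4.46 and 4.38 in sham and 1.91, 2.32 and 1.99, below the mark, in SCI.

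The largest differences among the members follow. The probe rclstr_25837_868_6 read 1.18, 1.18 and 1.27 in the sham rats and 10.92, 11.00 and 11.01 in the SCI rats. Its SCI values lay within 0.09 log2 units of each other, and its lower bound of 243-fold was the highest of the 902. The second, rclstr_22033_1668_21, read 1.78, 2.09 and 2.28 in the sham rats and 10.77, 10.28 and 9.91 in the SCI rats. Its bound was 154-fold, with the 3 SCI rats spread over 0.87 log2 units. These were also the only members with a mean SCI level above 10.

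The 20 members with the highest bounds, a group chosen after the values were seen, shared this shape. Their sham values ran from 0.92 to 2.99 and their SCI values from 7.72 to 11.01, and each was at least 34.3-fold higher in SCI. SCI rat 2 was the highest of the SCI rats for 11 of them, SCI rat 1 for 8 and SCI rat 3 for 1. Of the 20, 8 spread over more than 1 log2 unit among the SCI rats. By the weaker mark, 9 of the 20 were detected on all 3 sham arrays and 1 on none of them.

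**Figure D2:**
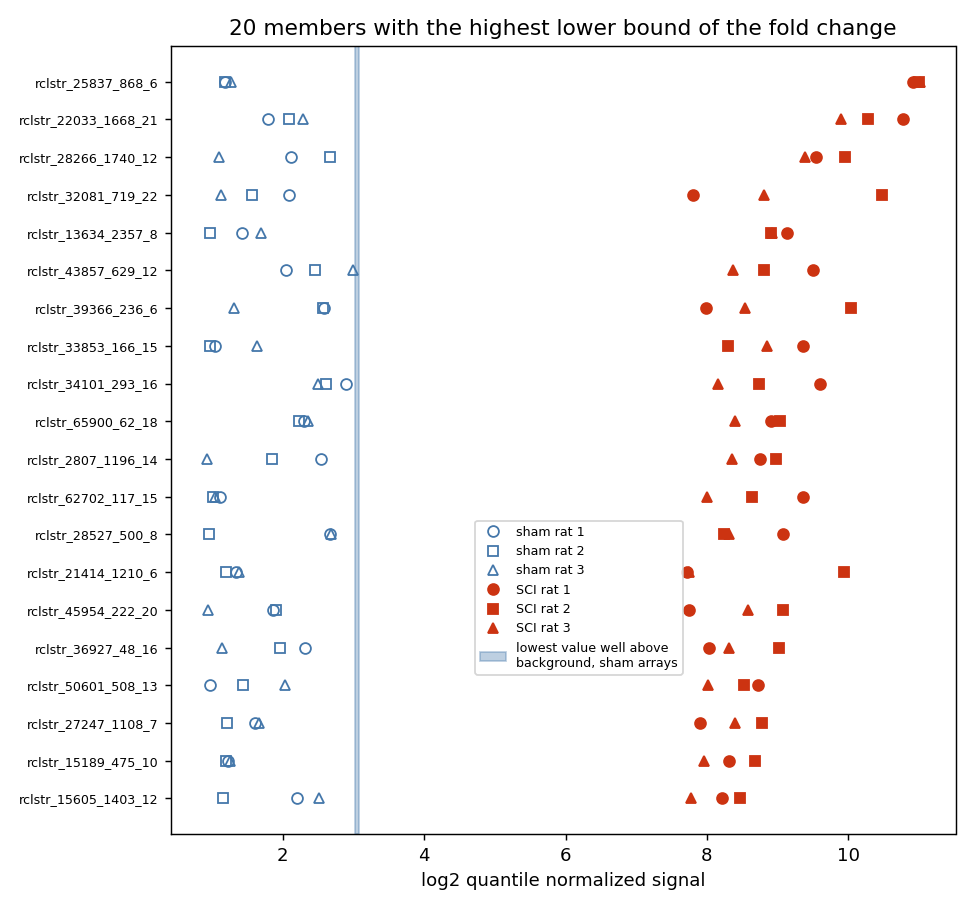
Log2 quantile normalized signal (horizontal axis) of the 20 injury-gained probes with the highest lower bounds, 1 row for each probe and 1 point for each rat; the blue band spans the lowest values well above background on the sham arrays, 3.02 to 3.08. Sham points lie left of the band, and SCI points lie at 7.72 or above, spread widely for some probes such as rclstr_32081_719_22.

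At the other end, the smallest bound was that of rclstr_55116_76_15, which read 1.73, 3.02 and 2.37 in the sham rats and 3.63, 3.45 and 3.64 in the SCI rats, at least 1.44-fold higher. On the scanner's scale its intensity was 9.65 units on the array of sham rat 2 and 9.83 units on that of SCI rat 2, so its mark changed there with little change in intensity. The lowest single SCI values among the members, both in SCI rat 2, were those of rclstr_26082_918_5, which read 4.33, 3.37 and 3.60, and rclstr_32392_1131_5, which read 3.94, 3.401 and 3.66. Just outside the rule, rclstr_56027_355_20 read 3.83, 3.997 and 4.18 in the SCI rats and rclstr_7161_1406_8 read 3.78, 4.45 and 4.58, both without the mark in SCI rat 1. Their values on the array they missed were above 3.55, the lowest value with which a member passed there, so the edge of the group depends on the spot and not on its level alone. Around that edge, 433 linear probes had the mark on 2 SCI arrays and no sham array, 570 on all SCI arrays and 1 sham array, and 734 on all SCI arrays and 2 sham arrays.

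**Figure D3:**
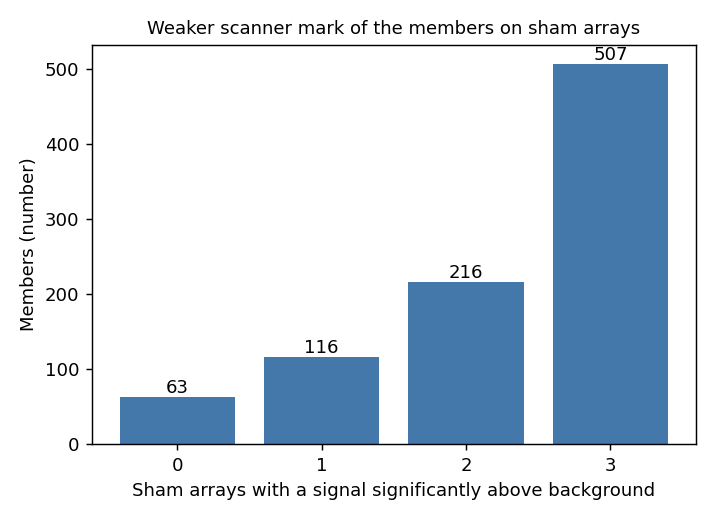
Number of injury-gained probes (vertical axis) by the number of sham arrays on which they carried the weaker mark, a signal significantly above background (horizontal axis). The bars rise from 63 probes with no such array to 507 with all 3.

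Sham values below the floor of an array count as the floor, so the bound of a member follows mainly from its SCI level. The bounds by weaker mark are given as a description and say little about the sham signal. The 63 probes at background on all 3 sham arrays by the weaker mark had a median bound of 3.29-fold and a median SCI level of 4.77, and the 507 with the weaker mark on all 3 had a median bound of 2.68-fold and a median SCI level of 4.48. The 116 with it on 1 array and the 216 with it on 2 had medians of 3.44-fold and 3.35-fold. The scanner replaced a sham signal at background by a surrogate value for 243, 218 and 176 members on the arrays of sham rats 1, 2 and 3 and for none on the SCI arrays. Sham values of members near 1 on the log2 scale are therefore in part such fill-in values, and their order has no meaning.

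The choice was also repeated without each array in turn. In every case the probes that kept their state on the array left out were the 902 members themselves. The shares below therefore restate the edge of the rule and are no check on unused data. When the probes were chosen on 5 arrays and the remaining array was then read, 1035, 1011 and 1093 probes were chosen without SCI rats 1, 2 and 3, and 87.1%, 89.2% and 82.5% of them were well above background in the rat left out. Of all linear probes with the mark in the same remaining pair of SCI rats, whatever their sham marks, 97.6%, 99.1% and 98.5% had it. Without sham rats 1, 2 and 3, 1051, 1068 and 1157 probes were chosen, and 85.8%, 84.5% and 78.0% of them lacked the mark in the rat left out, against 95.03%, 95.5% and 95.3% of all linear probes without it in the same remaining pair of sham rats. The share of chosen probes with the same state on the array left out, marked or unmarked, was the smaller value for each of the 6 arrays. The compared probes include the 33577 marked on all 6 arrays or the 13476 marked on none. Nothing is read from the difference, which was not tested.

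The 3 SCI rats did not carry the members to the same extent. Over the 902 probes, which share an array and its normalization, Pearson's r between SCI arrays was 0.85 to 0.90, and between sham arrays 0.36 to 0.43. The rule holds the sham values below the mark and some are surrogate values, so these ranges are not compared. SCI rat 1 was the highest of the 3 for 502 members, SCI rat 2 for 236 and SCI rat 3 for 164. SCI rat 1 was thus highest for 55.7% of members, against 34.8% of the linear probes well above background on all 6 arrays. At a mean SCI level of 4 to 5 the shares were 51.2% of 473 members and 30.1% of 3155 such probes, and at 5 to 6 they were 65.0% of 180 and 32.03% of 4415. At 6 to 8 they were 65.4% of 107 and 34.8% of 10253. Among the 21 members at 8 to 12 the order differed, with SCI rat 2 highest in 52.4% and SCI rat 1 in 42.9%, against 29.9% and 36.4% of 12413 such probes. The floor of the array of SCI rat 1 was also the highest of the SCI arrays, at 3.54 against 3.33 and 3.44. The part of the floor in the order of the rats was not tested. The lowest was SCI rat 3 for 403, SCI rat 2 for 370 and SCI rat 1 for 129. The median range among the SCI rats was 0.60 log2 units, or 1.51-fold.

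For 165 members the SCI rats differed by more than 2-fold, and the highest was SCI rat 1 in 93, SCI rat 2 in 59 and SCI rat 3 in 13. A single rat stood at least 2-fold above both others for 18 members in SCI rat 1, 21 in SCI rat 2 and 3 in SCI rat 3. A single rat stood at least 2-fold below both others for 1, 16 and 16 members in the same order. With 3 rats in the group, which of these differences belong to the rat and which to its array was not tested.

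In 19 members the range passed 2 log2 units, and those named here were picked for it after the values were seen. The widest, rclstr_38935_355_6, read 5.34, 9.71 and 4.95 in SCI rats 1, 2 and 3, a 27.1-fold range with SCI rat 2 far above the others. The next, rclstr_32494_388_7, read 7.70, 3.59 and 4.71, and rclstr_19166_2054_9 read 8.88, 5.24 and 5.79. Both were highest in SCI rat 1, over ranges of 17.2-fold and 12.4-fold. A further one, rclstr_38025_168_4, read 4.23, 3.59 and 6.35 and was highest in SCI rat 3. Of the 19, SCI rat 2 was highest in 9, SCI rat 1 in 6 and SCI rat 3 in 4, so no single rat accounted for them.

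**Figure D4:**
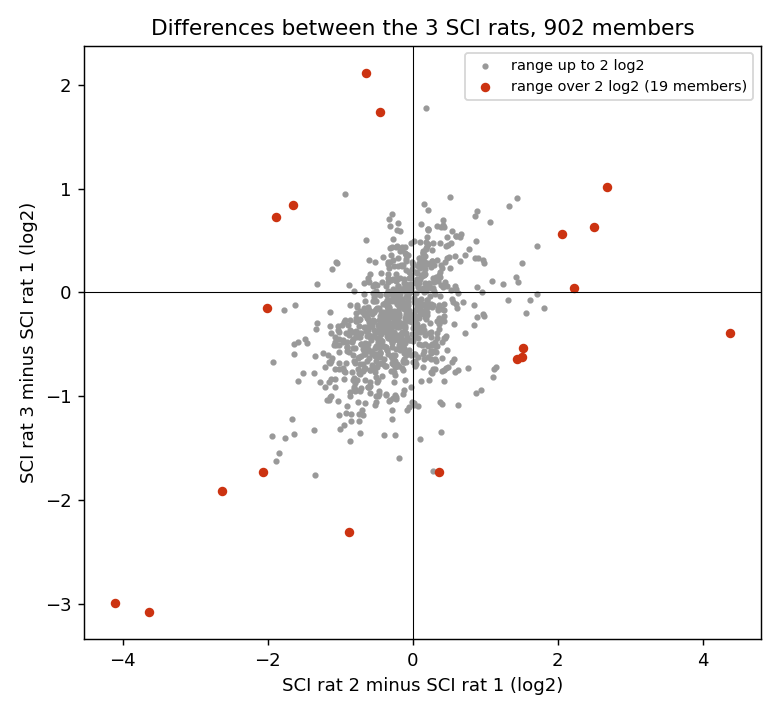
Each point is 1 of the 902 injury-gained probes, placed by SCI rat 2 minus SCI rat 1 (horizontal axis, log2) and SCI rat 3 minus SCI rat 1 (vertical axis, log2); red points are the 19 probes whose SCI values ranged over more than 2 log2 units. The red points lie in several directions from the centre, with 9 probes highest in SCI rat 2.

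Members varied more among the SCI rats than linear probes of like level with the mark on all 6 arrays, although no test of this difference was made. Probes raised in SCI but outside the rule were not compared, so the trait may not be particular to members. At a mean SCI level of 5 to 6 the median SD among SCI rats was 0.35 for 180 members and 0.21 for 4415 linear probes well above background on all 6 arrays. At 6 to 8 it was 0.39 for 107 members and 0.16 for 10253 such probes, and at 8 to 12 it was 0.44 for 21 members and 0.13 for 12413. At 4 to 5, where 473 members lay, the values were 0.30 and 0.25. The gap was thus widest among the brightest members.

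The pair that shared 25 bases, rclstr_32081_719_22 and rclstr_39366_236_6, varied alike among the SCI rats and held ranks 4 and 7 by lower bound. The former read 7.80, 10.48 and 8.81 in SCI rats 1, 2 and 3, and the latter read 7.98, 10.05 and 8.54. Both were highest in SCI rat 2 and lowest in SCI rat 1, and both are among the 19 widest, so these count as 1 observation if they read the same or closely related transcripts. In all, 24 of the 902 had a run of at least 20 bases in common with another probe on the same strand, and 6 pairs lay within the 902, with shared runs of 21 to 59 bases.

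The partners that were no members fell into different patterns. Of 15 such partners, 6 were well above background on all 3 sham arrays, 4 on 1 or 2 of them and 5 on none. The pair rclstr_40835_432_1018 and rclstr_57003_124_2022 shared 59 bases and read 5.34, 4.76 and 4.60 and 4.97, 4.82 and 4.57 in the SCI rats. A further probe, rclstr_38407_420_39, shared 48 bases with the former and 47 with the latter. It read 6.02, 5.80 and 5.70 in the sham rats and 6.10, 5.63 and 5.51 in the SCI rats, a difference of −0.09, so that probes sharing most of their sequence differed in whether they separated the groups. A stretch common to the 3 probes is printed with all of its 30 bases in capitals.
rclstr_57003_124_2022: CTCGAGTTGCTTACTGAACTGAAAGGAAAG

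Another member, rclstr_34101_293_16, shared 20 bases with a probe that was well above background on every array. The member read 2.89, 2.62 and 2.50 in the sham rats and 9.60, 8.73 and 8.16 in the SCI rats, at least 54.9-fold higher. Its partner rclstr_48740_332_6 read 5.06, 5.18 and 6.42 in the sham rats and 12.06, 11.52 and 11.01 in the SCI rats, higher by 5.97 log2 units. Both were highest in SCI rat 1 and lowest in SCI rat 3.

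A linear member also shared its run with a circular RNA probe. The member rclstr_15749_2125_6 read 1.099, 1.13 and 1.11 in the sham rats and 5.49, 4.75 and 5.06 in the SCI rats. The circular probe RNO_CIRCpedia_6360_6_4 read 1.31, 1.00 and 1.02 in the sham rats and 5.59, 5.13 and 5.27 in the SCI rats. The order of the SCI rats was the same in both. A circular RNA contains exon sequence of its linear transcript, and here the probes cannot say which form gave the signal in the shared stretch.

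Opposite strands were covered by probes for 4 members. The member rclstr_51381_374_6 read 1.95, 2.67 and 1.82 in the sham rats and 3.98, 4.09 and 4.64 in the SCI rats. Its partner rclstr_41317_543_8, whose sequence is the reverse complement over 48 bases, read 9.35, 9.35 and 9.47 in the sham rats and 11.44, 10.91 and 11.13 in the SCI rats. The partner itself was higher by 1.76 log2 units in SCI. Levels of different probes are not on a common scale, so the strands are not compared with each other. For rclstr_42666_579_4, with 59 bases opposite to rclstr_49828_66_5, the SCI values were 4.95, 4.05 and 4.42. Its partner read 3.16, 3.44 and 3.83 in the sham rats and 4.75, 4.81 and 4.51 in the SCI rats, a difference of 1.21. For rclstr_13951_344_6, with 43 bases opposite to rclstr_36263_33_7, the SCI values were 5.92, 5.11 and 4.99. That partner carried the mark on no array and read 2.30, 2.70 and 0.99 in the SCI rats. The partners of the others among the 4 were well above background on every array. Whether label from 1 strand reached the probe of the other was not tested.

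The members differed from the average linear probe in base composition. The rule did not use composition itself, but it excluded probes with a sham mark. Such marks were more frequent the more C bases a probe held. By design the G and C bases make up 40.0% to 46.7% of every linear probe, with a median of 46.7% for members and for all linear probes, so a probe poor in C is rich in G. A member held on average 12.5 C and 14.4 G bases, and a linear probe 13.4 C and 13.6 G bases. The 13476 linear probes with the mark on no array leaned the same way, with 12.9 C and 13.8 G bases. The probes of the mirrored pattern, well above background on all sham arrays and on no SCI array, of which there were 1946, held 15.04 C and 12.1 G bases.

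The share of linear probes that were members was lower the more C bases a probe held. It was 2.26% of the 5272 probes with at most 9 C bases (95% Wilson interval 1.89% to 2.69%), 1.92% of the 16679 with 10 to 12, 1.63% of the 21615 with 13 to 15, 0.93% of the 11077 with 16 to 18, and 0.28% of the 2459 with at least 19 (0.14% to 0.59%). The intervals cover counting error over probes on these 6 arrays only. A probe with the mark on a sham array could not be a member, and sham marks were more frequent the more C bases a probe held. Shares with the sham mark are given below for the fewest and the most C bases, and their part in the gradient was not tested. The mirrored pattern ran the other way, at 1.1%, 2.01%, 3.06%, 6.06% and 8.99% over the same bins. Over G bases the share of members rose from 0.62% with at most 9 to 2.24% with at least 19, and that of the mirrored probes fell from 8.17% to 1.19%. A gradient was present over A bases as well, where the share of members was 0.45% with at most 9 and 1.72% with at least 19, and that of mirrored probes 8.58% and 1.57%. Over T bases the share of members was 1.47% with at most 9 and 1.40% with at least 19, and that of mirrored probes 0.88% and 5.45%. Counts of the 4 bases add up to the length of the probe, so these gradients are not separate observations.

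**Figure D5:**
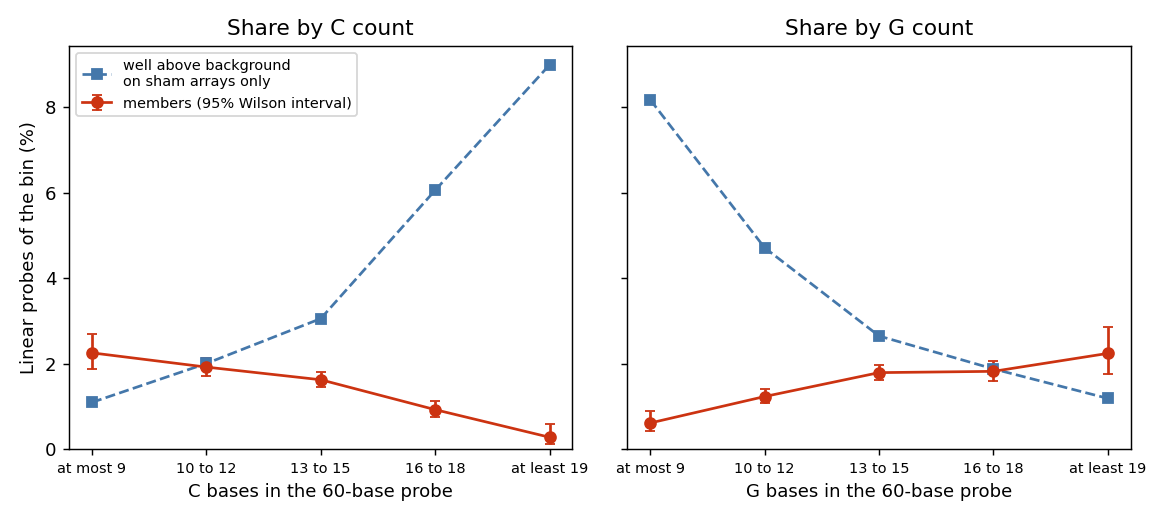
Share of linear probes (vertical axis, %) that were injury-gained (red, with 95% Wilson intervals) or well above background on the sham arrays only (blue), by the number of C bases (left) or G bases (right) in the probe (horizontal axis). The red line falls from 2.26% to 0.28% over C while the blue line rises from 1.1% to 8.99%, and both turn the other way over G.

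A gradient over C bases also appeared in linear probes that were no members. Among linear probes well above background on all 6 arrays, the median SCI minus sham difference was 0.11, 0.12, 0.03, −0.13 and −0.45 log2 units from the fewest to the most C bases, and it was −0.36 with at most 9 A bases and 0.02 with at least 19. With at least 19 C bases, 87.6%, 87.1% and 85.9% of linear probes carried the mark in the sham rats, and 72.1%, 74.7% and 73.0% in the SCI rats. With at most 9, the shares were 63.4%, 63.9% and 64.5% against 65.1%, 67.8% and 65.9%. A difference between the groups that follows base composition was therefore present over the whole array, with slide and group one and the same, and its part in any single member was not tested.

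Members with large differences showed the gradient less evenly. Of the 264 members whose bound passed the largest spike-in difference, the share of linear probes was 0.40% with at most 9 C bases, 0.51% with 10 to 12, 0.52% with 13 to 15, 0.38% with 16 to 18 and 0.12% with at least 19. The C-poor members also had the smaller bounds, with a median of 2.50-fold with at most 9 C bases against 3.4-fold with 16 to 18. Single probes need not follow these medians, and the pair with the highest bounds held 15 and 10 C bases. Of the probes printed for their composition, the most C-poor, rclstr_5105_1040_16 with 3 C bases, read 4.05, 4.29 and 3.75 in the SCI rats and was at least 1.97-fold higher than in sham. With 19 C bases, rclstr_52738_531_24 read 5.84, 5.86 and 5.25 and was at least 6.05-fold higher.

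A pair of short motifs was counted in the probes as written and on their reverse strand, with no test. The element ATTTA, a core of AU-rich elements that speed mRNA decay, was present in the probe as written in 66 members, or 7.32%, against 6.41% of all linear probes, and on the reverse strand in 5.21% against 5.76%. The polyadenylation signal AATAAA was present in 9 members, or 1.00%, against 1.77% of linear probes, and on the reverse strand in 1.77% against 1.73%. No match says only that these letters are not in the 60 bases of the probe.

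A rough sign of RNA integrity overlapped between the groups. The 3′ probe of Gapdh, a glycolytic enzyme used as a loading control, read above its 5′ probe by 2.78, 2.81 and 2.64 log2 units in the sham rats and 2.58, 2.74 and 2.70 in the SCI rats. No spot other than controls was saturated, so the brightest members are not capped.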

How the data were processed

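Spinal cord RNA of 3 sham and 3 SCI rats was measured on 1-colour rat ceRNA arrays. The authors deposited the output of Agilent Feature Extraction 10.7.1.1 (per the submitters' processing notes), which gives a linear intensity for each spot after background correction, with 0 or 1 marks per spot. They also deposited a log2 table, quantile normalized across the 6 arrays in GeneSpring per the paper's methods, which holds the values used here. The depth of an array is limited by its number; signal over background sets the precision.

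Members, probes and motifs were chosen with earlier results of these data known. Named probes were the 2 with the highest lower bound, 2 on each side of the threshold and others picked after their values were seen, as stated there. Because neither a column of the files nor the gene table pairs probes with genes, no gene, marker or pathway list was used. The background counts came from limma (version 3.58.1, functions lmFit and eBayes; R version 4.3.3; data.table, version 1.17.8), Benjamini-Hochberg adjusted over 42289 probes and two-sided. Tables and figures were made with python 3.11.15, pandas 2.3.3 and matplotlib 3.10.9. Spike-in signals were placed on the deposited scale by interpolation within each array. Sequences shared at least 20 consecutive bases. Nothing in the labels says the rats were handled as separate batches, but the groups lay on different slides, as stated above.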

Additional observations from a re-analysis of the deposited data

Results flagged for a closer look

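Among the 3046 circular RNA probes, which the rule of the members leaves out, 9 met the same rule of a signal well above background on all 3 SCI arrays and on no sham array, or 0.30% of them. The 68 control probes, none of which met it, are too few to compare with such a share. The highest bound among the 9 was that of RNO_CIRCpedia_6360_6_4, at least 4.84-fold, and the lowest that of RNO_CIRCpedia_995_16_8, at least 1.60-fold. The mirrored pattern held for 70 circular RNA probes.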

How the results depend on the processing

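The number of members was 902 when any spot counted, 359 by the weaker significance mark, of which 63 were among the 902, and 1411 with 1 common level on all arrays, of which 712 were. Leaving out 1 array gave 1011 to 1157. The median lower bound was 1.56 log2 units, and it was 1.12 after a 75th percentile shift, 0.41 after normexp with an offset of 50 and 1.01 with the floor at the 5th percentile; without 1 array it was 1.48 to 1.63. limma called 898 members, and 805 after the percentile shift, 123 after normexp, 892 without the filter and 746 with a signal floor, or 887 to 896 without 1 array. The replicate block gave 897; same-numbered rats shared only a number, with deviations correlated at −0.11, −0.08 and −0.16. The ratio of the member share with at most 9 C bases to that with at least 19 was an alternative chosen after seeing the data. It takes in the exclusion of probes with a sham mark, more frequent among C-rich probes. That ratio was 7.93, from 119 and 7 members. It was 31.3 by the significance mark, from 67 probes and 1 probe, 5.25 with a common level, from 180 and 16, and 3.26 for bounds above the largest spike-in difference, from 21 and 3, so the first and last of these rest on very few C-rich probes; without 1 array it was 5.31 to 9.66. The cause of these differences was not tested. Faint signals limit what can be said: most members lay close to background.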
